A study of Mus musculus with 8 samples.

Results

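The genes described here encode nuclear subunits of oxidative phosphorylation in the mouse, the protein complexes I to V of the mitochondrial inner membrane. They were taken from the table of 20943 gene symbols by name: every symbol beginning with Nduf, Uqcr, Cox4 to Cox8 or Atp5, together with Sdha, Sdhb, Sdhc and Sdhd, and leaving out the Ndufaf assembly factors. This gave 89 genes, with 39 in complex I, 4 in complex II, 8 in complex III, 21 in complex IV and 17 in complex V. Ndufa4 and Ndufa4l2 carry complex I names but were counted in complex IV, where the NDUFA4 protein is known to sit. The rule used names only and no measured value, but earlier results of these data were known when it was chosen. The 89 symbols include Ndufs5-ps, Ndufb4c and Cox7c-ps1, which were treated as pseudogene copies. Cyc1, which encodes cytochrome c1 of complex III, has another name and is outside the list. The subunits encoded by mitochondrial DNA were not analysed here.

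The samples were 8 malignant peripheral nerve sheath tumors (MPNST), an aggressive tumor of the nerve sheath, profiled by poly-A RNA sequencing. All 8 came from mice in which a tamoxifen-inducible Cre recombinase, driven by the Plp promoter of the Schwann cell lineage (Plp-CreERT), deleted floxed Nf1 and Cdkn2a, with 0.4 mg tamoxifen given to every mouse (day 0 to 3 of life). The 5 PRC2 wildtype tumors carried the Cre with Nf1(f/f) and Cdkn2a(f/f), recombined to Nf1(-/-) and Cdkn2a(-/-), and the 3 PRC2 loss tumors carried Eed(f/f), recombined to Eed(-/-), in addition, so that deletion of Nf1 and Cdkn2a was common to both groups. Polycomb repressive complex 2 (PRC2) methylates histone H3 at lysine 27 at silenced genes, and EED is one of its core subunits. The tumor codes show 3 animal numbers among the wildtype tumors (tumors 1 and 2 share one, as do tumors 3 and 4) and 2 among the PRC2 loss tumors (tumors 2 and 3 share one), so p-values over tumors may be too small. Age at collection was not given in the labels.

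Oxidative phosphorylation passes electrons from NADH through complex I, or from succinate through complex II, to ubiquinone, then through complex III and cytochrome c to complex IV, which reduces oxygen. Complexes I, III and IV pump protons, and complex V, the ATP synthase, uses the returning protons to make ATP. Several complex IV subunits exist as a broadly expressed gene and a second gene restricted to muscle, brown fat, lung or testis, so the pattern of complex IV genes differs between cell types.

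Eed, the check of the labels, averaged 10.25 ± 0.08 (SD, n = 5) over the wildtype tumors, and 8.89 ± 0.11 (SD, n = 3) was its mean over the PRC2 loss tumors, on the scale of the deposited quantile-normalized log2 counts. The difference was -1.36 (SE 0.115, limma adjusted p = 0.00021), and the groups did not overlap. Schwann lineage markers were present in every tumor and 8 of the 10 listed were higher in PRC2 loss, so the labelled tissue carried its defining markers. The tumors also held other cells in unequal amounts. The log2 of the summed level of 20 skeletal muscle markers ranged from 9.52 to 16.80 in wildtype and from 9.79 to 13.40 in PRC2 loss tumors, with wildtype tumors 1 and 2 and PRC2 loss tumor 3 highest. Macrophage markers (8 of 11, with 1 higher) and T and NK cell markers (9 of 10) were lower, and endothelial markers (7 of 8) higher, in PRC2 loss. In bulk tumors, fewer cells of a type and less RNA per cell cannot be told apart, and the part of cell content in the results on the subunits was not tested, apart from muscle. With the mean of the muscle markers as a covariate, 34 members fell and 3 rose by limma, and these included all 32 that fell without it. Calls over all 20807 genes tested also increased with the covariate. Of these genes 4929 fell and 3760 rose, against 4087 and 3337 without it.

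Promoter sequences of a few members are shown because the genes with the firmest differences had unlike promoters. The sequences are the 250 bases before the gene start on the coding strand, from RefSeq on GRCm38.p6 (the same sequence as mm10), and capitals mark CpG dinucleotides, which cluster in the promoters of broadly expressed genes. Cox6b2, the testis-enriched form of subunit 6b, lies at chr7:4751792-4753094 and has its window at chr7:4753095-4753344 on the minus strand, with 8 CpG. Cox6b1, the broad form, has its window at chr7:30626115-30626364 on the minus strand, with 14 CpG. The Cox5a window, at chr9:57520982-57521231 on the plus strand, holds 26 CpG and lies inside the annotated span of the gene, which starts further upstream. The window of Atp5md, at chr19:47090648-47090897 on the minus strand, holds 32 CpG.
Cox6b2: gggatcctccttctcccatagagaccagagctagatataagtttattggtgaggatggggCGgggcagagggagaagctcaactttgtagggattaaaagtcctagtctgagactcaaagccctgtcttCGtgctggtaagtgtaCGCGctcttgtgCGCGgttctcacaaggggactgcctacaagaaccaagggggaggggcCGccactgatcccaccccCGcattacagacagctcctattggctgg
Cox6b1: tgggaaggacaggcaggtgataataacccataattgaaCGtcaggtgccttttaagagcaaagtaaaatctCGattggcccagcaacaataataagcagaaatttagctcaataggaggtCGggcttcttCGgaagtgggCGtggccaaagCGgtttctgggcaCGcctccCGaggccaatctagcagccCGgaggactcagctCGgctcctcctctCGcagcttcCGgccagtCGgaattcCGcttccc
Cox5a: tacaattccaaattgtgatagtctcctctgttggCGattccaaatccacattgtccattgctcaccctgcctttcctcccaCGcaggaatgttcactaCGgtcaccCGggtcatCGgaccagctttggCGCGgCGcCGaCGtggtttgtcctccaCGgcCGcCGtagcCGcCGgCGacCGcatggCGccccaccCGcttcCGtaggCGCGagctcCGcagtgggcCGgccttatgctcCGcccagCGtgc
Atp5md: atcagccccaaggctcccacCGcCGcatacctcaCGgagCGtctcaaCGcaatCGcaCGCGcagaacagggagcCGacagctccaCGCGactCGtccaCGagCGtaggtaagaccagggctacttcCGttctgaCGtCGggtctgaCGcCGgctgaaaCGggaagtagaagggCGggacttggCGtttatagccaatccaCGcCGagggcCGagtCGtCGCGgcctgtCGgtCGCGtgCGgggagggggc

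Of the 89 members, 70 had a promoter in the RefSeq table, with 75 promoters in all. The median was 14 CpG per 250 bases in member promoters against 6 in all 32851 promoters of the table. Among complex IV genes the 4 restricted isoforms with a promoter had a median of 6 (range 1 to 9), and the 9 broad or single-copy genes had a median of 14 (range 5 to 26). Nuclear respiratory factor 1 (NRF1) is a known activator of many respiratory chain genes. Its motif, GCGC, then a gap of 2 bases of any kind, then GCGC, searched on both strands, was in 15 of the 70 members (21.4%) and in 5.64% of all 27025 genes with a promoter. The motif itself holds CpG, and these shares were not adjusted for the higher CpG count of member promoters. The ETS motif CCGGAAGT was in 3 members (4.29% against 3.23%) and the ERR motif TCAAGGTCA in 1 (1.43% against 0.422%). Of the 27 members with a promoter that fell in PRC2 loss, 4 (14.8%) held the NRF1 motif, and of the 42 not called 11 (26.2%) did. One of the members that fell and held it is Atp5g2, a gene of the c-ring of ATP synthase. Its window is shown with the NRF1 match in capitals (chr15:102671048-102671297, minus strand).
Atp5g2: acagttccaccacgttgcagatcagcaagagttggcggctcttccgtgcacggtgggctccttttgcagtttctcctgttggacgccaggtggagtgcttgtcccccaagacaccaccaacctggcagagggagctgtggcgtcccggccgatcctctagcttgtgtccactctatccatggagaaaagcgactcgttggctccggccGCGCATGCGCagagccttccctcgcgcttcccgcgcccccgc

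A motif match describes these letters only and is no measure of binding.

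As a group, the subunit genes were lower in PRC2 loss tumors on the deposited scale. Of the 89 members, 32 fell and 3 rose at a limma adjusted p below 0.05, where 19.6% of the 20807 genes tested fell and 16% rose (35.7% in either direction). The difference was negative for 75 members and positive for 14, and the median difference was -0.37 against -0.12 for all genes tested. The members are mostly abundant transcripts, 79 of 89 having a mean at least as high as that of the median gene. Among all genes with a mean that high, 23.7% fell, 15.9% rose and the median difference was -0.13. In 41 members every PRC2 loss tumor lay below every wildtype tumor, and in 2 every one lay above, where 21.4% and 16.9% of all genes did so (38.3% in either direction). Without PRC2 loss tumor 1 the count that fell was 21, and with the tumors of one animal number averaged it was 15. Over all genes the count that fell also dropped, from 4087 to 3024 and 2113 in these fits.

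The deviation of the members from their wildtype means shows the shift tumor by tumor. The median deviation over the 89 members was 0.12, -0.04, -0.14, 0.11 and -0.06 in wildtype tumors 1 to 5, and -0.44, -0.37 and -0.32 in PRC2 loss tumors 1 to 3. All 3 PRC2 loss tumors lay below all 5 wildtype tumors, and wildtype tumors 1 and 4 stood highest. In complex IV the medians were between -0.07 and 0.19 in wildtype and between -0.60 and -0.45 in PRC2 loss tumors. In complex II they were between -0.14 and 0.15 in wildtype and between -0.21 and -0.06 in PRC2 loss tumors, so that complex II alone had overlapping groups.

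**Figure D1:**
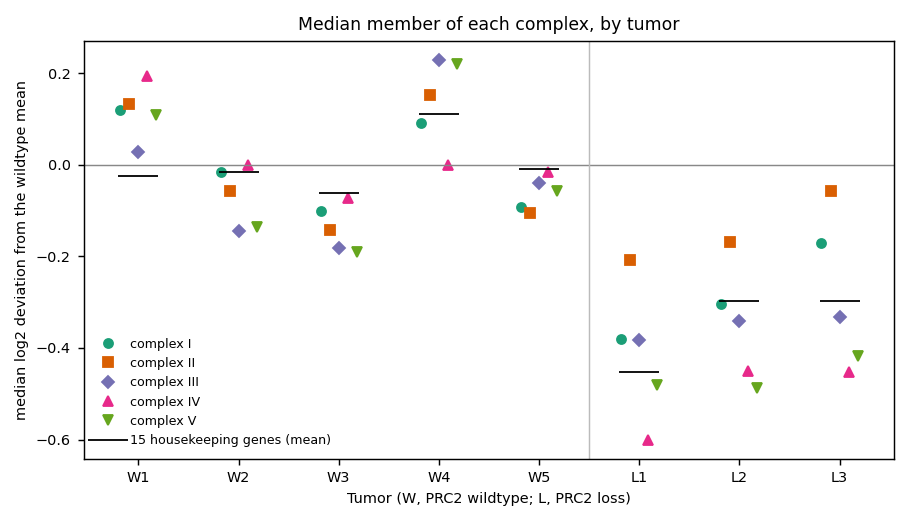
Median deviation of the members from their wildtype means (log2, vertical axis) in each of the 5 wildtype and 3 PRC2 loss tumors, by complex (symbols), with the mean deviation of 15 housekeeping genes (black bars). The PRC2 loss tumors lie lowest for complexes I, III, IV and V, with complex IV between -0.60 and -0.45, while complex II reaches -0.06.

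The size of this shift depended on the scale, because genes used as a level reference were also lower. The mean level of 15 housekeeping genes averaged 12.08 ± 0.07 over the wildtype tumors (SD, n = 5), and 11.73 ± 0.09 over the PRC2 loss tumors (SD, n = 3), and 6 of the 15 fell (limma adjusted p below 0.05). With every tumor centred on these genes, 9 members fell and 10 rose, the members' median difference was -0.02, and the median of all genes moved from -0.12 to 0.23. On that scale 10.7% of all genes fell and 25.5% rose, so the members' share that fell was near the background and is no result about them as a group. The 10 of 89 members that rose were a smaller share than that of all genes. This centring moves all genes of a tumor by the same amount, so it leaves the members' place relative to other genes unchanged. Their median stayed below that of all genes, at -0.02 against 0.23, as it did at -0.37 against -0.12 on the deposited scale. Centred on the members' own median, 9 members fell, where 9.72% of all genes did, and 9 rose, where 23.7% did. This centring removes any shift common to the members by construction, so these counts only rank members against each other. Which scale lies closer to transcript content per cell was not tested. The same 9 genes fell on all 3 scales and with the tumors of one animal number averaged: Atp5md, Atp5g2, Cox5a, Cox7b, Cox7a1, Uqcrq, Ndufa12, Ndufb8 and Ndufs5-ps. These were chosen for description after their values were seen.

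The 54 members that did not pass had differences between -3.39 (Cox6a2) and 0.39 (Cox7b2), and 27 of them were in complex I, where they lay between -0.46 and 0.29.

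**Figure D2:**
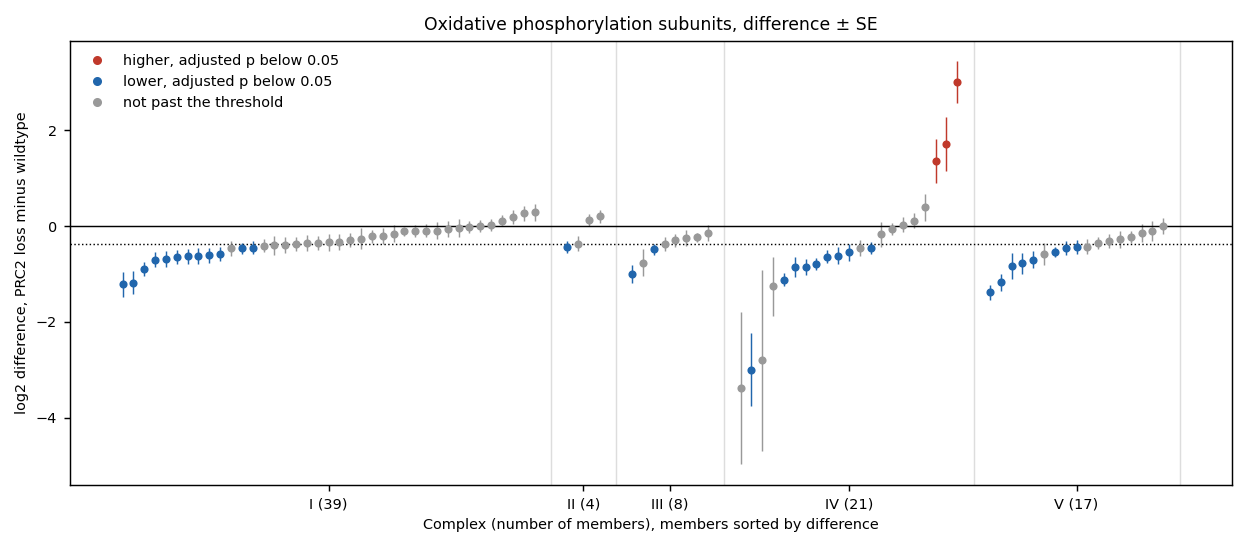
Log2 difference, PRC2 loss minus wildtype, of each of the 89 members (points), by complex and coloured by the limma call, with bars for the SE and a dotted line at the median of -0.37. Most points lie below 0, with 32 called lower and 3 higher, and complex IV spans from -3.39 to 3.02.

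Complex I, the NADH dehydrogenase, had 12 of 39 members (30.8%) lower and none higher by limma, with a median difference of -0.34. Among all genes 19.6% fell and 16% rose, and 23.7% fell among genes with a mean at least that of the median gene. Centred on housekeeping genes, 3 complex I members were lower and 5 higher, with a median of 0.01, where 10.7% of all genes fell and 25.5% rose. Of the 7 core subunits measured, 1 fell, and of the 30 accessory subunits 9 fell; the difference between these shares was not tested.

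Ndufs8, an iron-sulfur subunit that passes electrons toward ubiquinone, was the core gene that fell. Its levels were 11.10, 10.77, 10.87, 11.29 and 10.86 in wildtype tumors 1 to 5 and 9.96, 10.45 and 10.47 in PRC2 loss tumors 1 to 3. All PRC2 loss tumors were below all wildtype tumors, and the difference was -0.69 (SE 0.172, limma adjusted p = 0.0155). Without PRC2 loss tumor 1 the limma adjusted p of Ndufs8 was 0.0527. The core genes that follow did not pass the test. Ndufs1, the largest iron-sulfur subunit, differed by -0.02 (limma adjusted p = 0.926) and Ndufs3 by 0.11 (adjusted p = 0.505). Ndufs7, which carries the last iron-sulfur cluster, differed by -0.36 (limma adjusted p = 0.147), Ndufv1, the NADH-binding subunit, by -0.26 (adjusted p = 0.41) and Ndufv2 by -0.34 (adjusted p = 0.138).

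Among the accessory genes, Ndufa12 and Ndufb8 were furthest apart between groups. Ndufa12 encodes a subunit of the peripheral arm of the complex. Its levels were 10.70, 10.47, 11.02, 11.63 and 11.02 in the wildtype tumors and 9.67, 9.80 and 9.90 in the PRC2 loss tumors. The groups did not overlap although wildtype tumor 4 stood above the others, and the mean was 2.26-fold lower in PRC2 loss (difference -1.18, SE 0.241, limma adjusted p = 0.0068). Ndufb8 encodes a subunit of the membrane arm. It had levels of 11.51, 11.21, 11.33, 11.62 and 11.37 in wildtype and 10.22, 10.62 and 10.71 in PRC2 loss tumors. Again the groups were apart, with a difference of -0.89 (SE 0.149, limma adjusted p = 0.00294). Ndufc2, another membrane-arm subunit, fell by 0.70 (SE 0.154, limma adjusted p = 0.00894). The remaining accessory genes that fell were Ndufab1, Ndufb5, Ndufb6, Ndufb1, Ndufc1 and Ndufs4, with differences between -0.63 and -0.45. Of these, Ndufs4 lost its call without wildtype tumor 1, 4 or 5 or any PRC2 loss tumor (highest limma adjusted p 0.0944), and was called in 8 of 22 alternatives. Ndufab1 lost it without PRC2 loss tumor 1 or 3 (highest 0.0565), Ndufb1 without PRC2 loss tumor 2 or 3 (0.0537), Ndufb6 without PRC2 loss tumor 3 (0.053) and Ndufc1 without PRC2 loss tumor 1 (0.0584).

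Both complex I symbols treated as pseudogenes fell, while Ndufs5 and Ndufb4, the genes they resemble, did not pass the test. The annotations disagree on Ndufb4c, which is protein-coding in RefSeq and a processed pseudogene in GENCODE. Ndufs5-ps had levels of 8.74, 8.71, 8.66, 8.87 and 9.09 in wildtype and 7.32, 8.24 and 7.24 in PRC2 loss tumors, with a difference of -1.21 (SE 0.263, limma adjusted p = 0.00857). Its PRC2 loss values lay below every wildtype value, and Ndufs5 itself differed by -0.06 (limma adjusted p = 0.778). Ndufb4c differed by -0.64 (limma adjusted p = 0.0121) and Ndufb4 by -0.11 (adjusted p = 0.545). Ndufs5-ps lies inside Zbtb20 and Ndufb4c inside Mroh5, and reads shared with near-identical copies or with these overlapping genes cannot be separated here, so both pseudogene values are uncertain.

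Complex II, succinate dehydrogenase, which belongs both to the respiratory chain and to the tricarboxylic acid cycle, had 1 of 4 genes lower by limma, which is too few to set against the 19.6% of all genes. Sdhd, a membrane anchor, had levels of 11.64, 11.50, 11.22, 11.65 and 11.58 in wildtype and 11.09, 10.97 and 11.20 in PRC2 loss tumors. The groups were separated by a narrow margin at wildtype tumor 3, and the difference was -0.43 (SE 0.129, limma adjusted p = 0.0308). Sdha, the subunit that oxidizes succinate, differed by 0.20 (limma adjusted p = 0.277), and Sdhc, the other anchor, by 0.13 (adjusted p = 0.446). Sdhb, the iron-sulfur subunit, differed by -0.37 (limma adjusted p = 0.113). Centred on housekeeping genes, Sdha and Sdhc were called higher, with differences of 0.55 (limma adjusted p = 0.0151) and 0.48 (adjusted p = 0.0145), and Sdhd was no longer called. The Sdhd call was also lost without any one of wildtype tumors 1, 4 and 5 or PRC2 loss tumors 1 and 2 (limma adjusted p up to 0.106).

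Complex III, the cytochrome bc1 complex, had 2 of its 8 listed genes lower by limma and all 8 differences negative, with a median of -0.33. Cyc1, also of this complex but outside the name rule, is counted with the electron carriers below. It was lower too, with a difference of -0.51 (limma adjusted p = 0.0196). The share that fell was near that of all genes (19.6%, and 23.7% among genes with a mean at least that of the median gene). Uqcrq, a small subunit next to cytochrome b, had levels of 11.02, 11.05, 10.91, 11.51 and 11.07 in wildtype and 9.89, 10.45 and 9.99 in PRC2 loss tumors. The groups did not overlap, and Uqcrq was 2.00-fold lower in PRC2 loss (difference -1.0, SE 0.18, limma adjusted p = 0.00395). Uqcrfs1, the Rieske iron-sulfur protein that hands electrons on to cytochrome c1, fell by 0.49 (SE 0.109, limma adjusted p = 0.0101). The core proteins did not pass, with Uqcrc1 differing by -0.29 (limma adjusted p = 0.128) and Uqcrc2 by -0.24 (adjusted p = 0.0889), although their groups did not overlap.

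**Figure D3:**
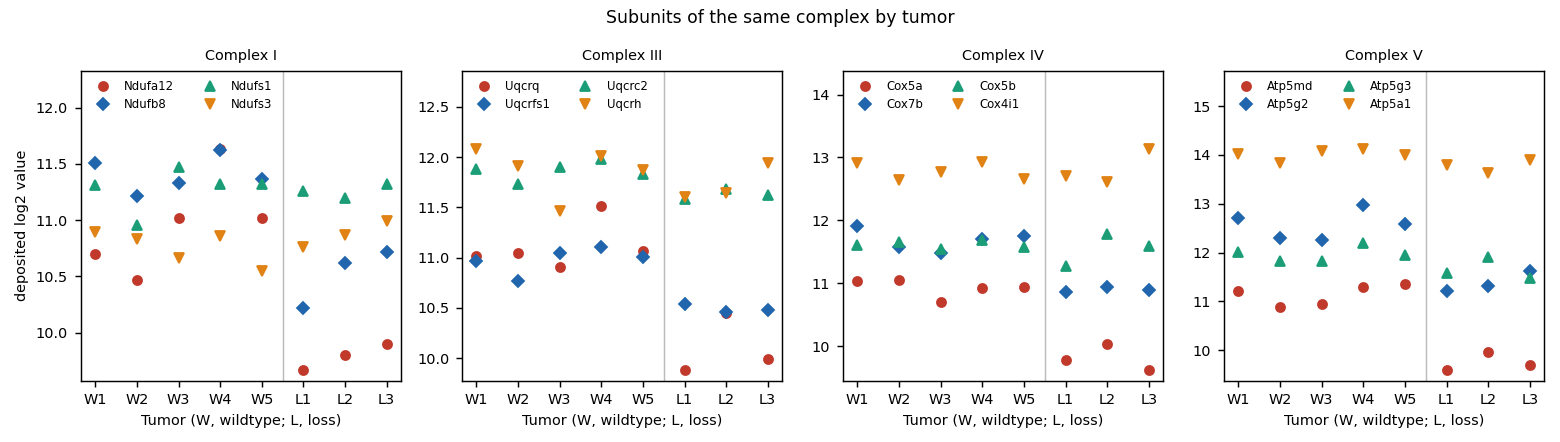
Deposited log2 values (vertical axis) of members of complexes I, III, IV and V in each tumor, with circles and diamonds for members that fell and triangles for members that did not pass the test. Cox5a lies between 9.63 and 10.03 in PRC2 loss tumors against 10.70 to 11.05 in wildtype, whereas Cox4i1 overlaps between the groups.

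Complex V, the ATP synthase, had 8 of 17 genes (47.1%) lower by limma and none higher, with a median difference of -0.44, where 19.6% of all genes fell and 16% rose. Centred on housekeeping genes, 2 of the 17 were lower and none higher, with a median of -0.09, where 10.7% of all genes fell and 25.5% rose. Of the 5 membrane genes 4 fell (Atp5md, Atp5j2, Atp5mpl and Atp5k), of the 3 c-ring genes 2 (Atp5g2 and Atp5g1), of the 4 peripheral stalk genes 1 (Atp5pb) and of the 5 genes of the catalytic F1 head 1 (Atp5b). The shares are too small in number to be compared and were not tested against each other.

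Atp5md encodes a small membrane subunit, known as DAPIT, that takes part in forming ATP synthase dimers. It had levels of 11.22, 10.88, 10.95, 11.30 and 11.35 in wildtype and 9.61, 9.96 and 9.70 in PRC2 loss tumors. Every PRC2 loss tumor was below every wildtype tumor by a clear gap, and the mean was 2.61-fold lower (difference -1.38, SE 0.153, limma adjusted p = 0.00055). The gene overlaps Taf5 by 9 bases. Atp5md and Cox5a were the 2 members called lower in all 22 alternatives tried.

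The 3 c-ring genes encode the same mature protein with different targeting sequences. Atp5g2, the most abundant of them per kilobase of exon, had levels of 12.70, 12.30, 12.26, 12.97 and 12.58 in wildtype and 11.21, 11.32 and 11.63 in PRC2 loss tumors. The groups were apart, and the mean was 2.26-fold lower (difference -1.18, SE 0.187, limma adjusted p = 0.00228). Atp5g1 fell by 0.78 (SE 0.218, limma adjusted p = 0.0251), and Atp5g3 differed by -0.32 (adjusted p = 0.114). On the log2 scale per kilobase, Atp5g2 stood at 11.82 in wildtype and 10.64 in PRC2 loss tumors, Atp5g3 at 10.84 and 10.53, and Atp5g1 at 9.05 and 8.27, so Atp5g2 stood first in wildtype tumors, and in PRC2 loss tumors it was apart from Atp5g3 by less than the SD of either gene (0.22 and 0.23).

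Atp5b, the catalytic beta subunit, fell by 0.83 (SE 0.274, limma adjusted p = 0.0453), close to the threshold, from levels of 14.10 to 15.37 in wildtype to 13.65 to 13.98 in PRC2 loss tumors. Atp5a1, the alpha subunit, differed by -0.24 (limma adjusted p = 0.187). Atp5pb, subunit b of the stalk, fell by 0.54 (SE 0.109, limma adjusted p = 0.00629), and Atp5j2 by 0.70 (adjusted p = 0.0161). Atp5k, a membrane subunit, fell by 0.46 (limma adjusted p = 0.0433). Several of these calls were lost on leaving out 1 tumor, in most cases any of several tumors. The highest limma adjusted p on leaving out 1 tumor was 0.149 for Atp5b and 0.141 for Atp5k (both without PRC2 loss tumor 2), 0.0787 for Atp5g1 (without PRC2 loss tumor 3) and 0.0639 for Atp5j2 (without PRC2 loss tumor 1). Atp5b kept its call only without wildtype tumor 2, and Atp5k only without wildtype tumor 2 or 5; Atp5g1 lost it without wildtype tumor 1 or any PRC2 loss tumor. Atp5mpl, whose groups overlapped (difference -0.44, limma adjusted p = 0.0423), lost its call without wildtype tumor 1, 4 or 5 or PRC2 loss tumor 2 or 3 (highest 0.126) and was called in 7 of 22 alternatives.

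Complex IV, cytochrome c oxidase, held the extremes of the list. By limma 9 of 21 genes were lower and 3 higher in PRC2 loss, with a median of -0.55. Of the 7 broad isoforms 5 fell, of the 4 single-copy genes 3 fell, and none of either rose, while of the 8 restricted isoforms 3 rose and 1 fell, where 19.6% of all genes fell and 16% rose. The difference between these shares was not tested. Centred on housekeeping genes, 3 complex IV genes were lower and 3 higher, with a median of -0.20. On that scale 10.7% of all genes fell and 25.5% rose. There 1 of the 7 broad isoforms and 1 of the 4 single-copy genes were lower, and none of either was higher. The restricted isoforms still had 3 higher and 1 lower. Of the 8 restricted isoforms, Cox7b2 was listed at 0 in all tumors but PRC2 loss tumor 3 (1.18), and Cox8c in all but PRC2 loss tumor 2 (0.33). The pseudogene symbol Cox7c-ps1 was listed at 0 in wildtype tumors 1 and 4 and in all PRC2 loss tumors.

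Cox5a, which has no second isoform and binds on the matrix side, had levels of 11.04, 11.05, 10.70, 10.93 and 10.93 in wildtype and 9.78, 10.03 and 9.63 in PRC2 loss tumors. The groups lay far apart for their spread, and the mean was 2.17-fold lower (difference -1.12, SE 0.134, limma adjusted p = 0.000768). Cox7b had levels of 11.91, 11.58, 11.48, 11.71 and 11.75 in wildtype and 10.86, 10.93 and 10.89 in PRC2 loss tumors, again without overlap, with a difference of -0.79 (SE 0.118, limma adjusted p = 0.0018). Cox7c fell by 0.64 (SE 0.128, limma adjusted p = 0.00644) and Ndufa4 by 0.85 (SE 0.173, adjusted p = 0.00653). Cox8a (-0.85), Cox7a2 (-0.55), Cox6b1 (-0.46) and Cox6c (-0.62) also fell, with limma adjusted p of 0.0143, 0.0333, 0.0282 and 0.0286. Cox6b1 lost its call without any one of wildtype tumors 1, 4 and 5 or PRC2 loss tumors 1 and 3 (highest limma adjusted p 0.0948), and Cox7a2 without wildtype tumor 1, 4 or 5 or any PRC2 loss tumor (highest 0.111). Cox6c lost it without any one of the PRC2 loss tumors (highest 0.0951). Cox4i1, the broad form of the regulatory subunit 4, differed by 0.03 (limma adjusted p = 0.89) and Cox5b by -0.06 (adjusted p = 0.73).

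Cox6b2 was the member with the largest rise. Its levels were 6.21, 6.69, 4.99, 5.61 and 6.29 in the wildtype tumors and 8.80, 9.50 and 8.62 in the PRC2 loss tumors. Every PRC2 loss tumor was above every wildtype tumor, and the mean was 8.08-fold higher (difference 3.02, SE 0.436, limma adjusted p = 0.00157). Cox6b1 fell by 0.46, so the log2 ratio of Cox6b2 to Cox6b1 went from -5.87 ± 0.61 (SD, n = 5) to -2.40 ± 0.36 (SD, n = 3), a difference of 3.47 (exact two-sided permutation p = 0.0179, the smallest that 56 splits allow; 0.0536 after Benjamini-Hochberg adjustment over the 6 isoform pairs tested, so it did not pass 0.05). Per kilobase, Cox6b2 stood at 5.81 in wildtype and 8.82 in PRC2 loss tumors and Cox6b1 at 12.33 and 11.87 on the log2 scale, so Cox6b1 remained the more abundant form. No other gene of the annotation overlaps Cox6b2.

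Cox4i2 and Ndufa4l2 rose with more spread. Cox4i2, the isoform of subunit 4 known from lung and low oxygen, had levels of 6.08, 5.70, 6.27, 6.41 and 6.85 in wildtype and 6.66, 8.04 and 9.24 in PRC2 loss tumors. The groups overlapped, PRC2 loss tumor 1 being within the wildtype range, and the mean was 3.30-fold higher (difference 1.72, SE 0.56, limma adjusted p = 0.0426). Ndufa4l2, an isoform of Ndufa4 known to be induced by low oxygen, had levels of 7.59, 7.33, 7.10, 6.96 and 7.35 in wildtype and 7.65, 8.37 and 9.89 in PRC2 loss tumors. The groups did not overlap, but PRC2 loss tumor 1 was only just above wildtype tumor 1, and the difference was 1.37 (SE 0.461, limma adjusted p = 0.048). Removal of any one of wildtype tumors 1 to 4, or of PRC2 loss tumor 2 or 3, raised the adjusted p of both above the threshold (highest 0.148 for Cox4i2 and 0.119 for Ndufa4l2, each without PRC2 loss tumor 3), as did leaving out wildtype tumor 5 for Ndufa4l2 (0.0754). These calls held in 9 of 21 alternatives for Cox4i2 and in 6 of 21 for Ndufa4l2, so both are less firm than Cox6b2, which was called in all 21 in which it was tested.

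Both isoforms are also known from pericytes, the cells around small vessels, and the pericyte marker Rgs5 was also higher in PRC2 loss. The Rgs5 levels were 13.00, 12.59, 12.54, 11.77 and 12.01 among wildtype tumors, then 14.58, 15.19 and 17.25 for PRC2 loss tumors 1 to 3 (difference 3.29, limma adjusted p = 0.00328), in the same order over the PRC2 loss tumors as Cox4i2 and Ndufa4l2. That order is not particular to pericytes. The mean skeletal muscle, adipocyte, brown adipocyte and endothelial marker levels also rose from PRC2 loss tumor 1 to 3, while Schwann lineage and neuron means fell. Among wildtype tumors Rgs5 and Ndufa4l2 were highest in tumor 1, but Cox4i2 was highest in tumor 5. Of the 11 pericyte and smooth muscle markers 3 were higher and none lower, and the log2 of their summed level was 13.67 to 15.27 in wildtype and 15.54 to 17.71 in PRC2 loss tumors, with no marker of the list at 0 in any tumor. The part of these cells in the result was not tested. The span of Cox4i2 shares 6308 bases with that of Bcl2l1, which differed by 1.13 (limma adjusted p = 0.00637), and strand use in the counting was not given in the sources used here, so reads of the 2 genes may not be separated. The log2 ratio of Cox4i2 to Cox4i1 differed by 1.69 and that of Ndufa4l2 to Ndufa4 by 2.22 (exact permutation p = 0.0357 and 0.0179, both 0.0536 after Benjamini-Hochberg adjustment).

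Cox7a1, the form of subunit 7a of heart, skeletal muscle and brown fat, was the restricted isoform that fell. Its levels were 6.67, 6.08, 6.97, 3.80 and 4.83 in wildtype and 2.76, 2.80 and 2.45 in PRC2 loss tumors. The wildtype tumors were spread over a wide range, all above the PRC2 loss tumors, and the mean was 8.0-fold lower (difference -3.00, SE 0.759, limma adjusted p = 0.0163). Wildtype tumor 3, the highest for Cox7a1, also had the highest brown fat markers, with Ucp1 at 9.38 against 0.00 to 1.85 in the other 7 tumors and Cidea at 8.57 against 0.00 to 2.88. Of the 6 brown fat markers 1 (Otop1) was higher and none lower in PRC2 loss, the log2 of their summed level was 7.0 to 10.59 in wildtype and 8.91 to 9.85 in PRC2 loss tumors, and Ucp1 was listed at 0 in wildtype tumor 4. The part of brown fat in the Cox7a1 result was not tested. Without wildtype tumors 1 and 2 the limma adjusted p was 0.0518, and without PRC2 loss tumor 3 it was 0.0566. The log2 ratio of Cox7a1 to Cox7a2 differed by -2.45 (exact permutation p = 0.0357, 0.0536 after Benjamini-Hochberg adjustment).

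Cox6a2 and Cox8b, the muscle forms of subunits 6a and 8, did not pass the test and were highest in tumors with high muscle or brown fat markers. Cox6a2 had levels of 8.80, 8.54, 4.06, 5.04 and 2.85 in wildtype and 0.33, 2.45 and 4.63 in PRC2 loss tumors (difference -3.39, SE 1.59, limma adjusted p = 0.132). Its highest levels were in wildtype tumors 1 and 2, where the muscle creatine kinase Ckm stood at 13.47 and 13.19 against 3.46 to 9.33 elsewhere, and within the PRC2 loss group in tumor 3, which had the highest Ckm there. Cox8b, which is also expressed in brown fat, had levels of 8.46, 6.88, 8.46, 5.56 and 0.00 in wildtype tumors, the third being the tumor with high Ucp1, and was 1.48, 2.89 and 4.82 in PRC2 loss tumors (difference -2.81, limma adjusted p = 0.286). Mb, the muscle oxygen carrier, stood at 10.01 and 8.60 in wildtype tumors 1 and 2 and at 0.00 in PRC2 loss tumor 1. Of the 20 muscle markers 1 (Tnnt1) was higher and none lower in PRC2 loss. With the mean of these markers as a covariate, the difference was -2.64 for Cox6a2 (limma adjusted p = 0.00657), -2.32 for Cox8b (adjusted p = 0.322) and -2.90 for Cox7a1 (adjusted p = 0.0192), so the Cox6a2 call depended on the covariate.

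**Figure D4:**
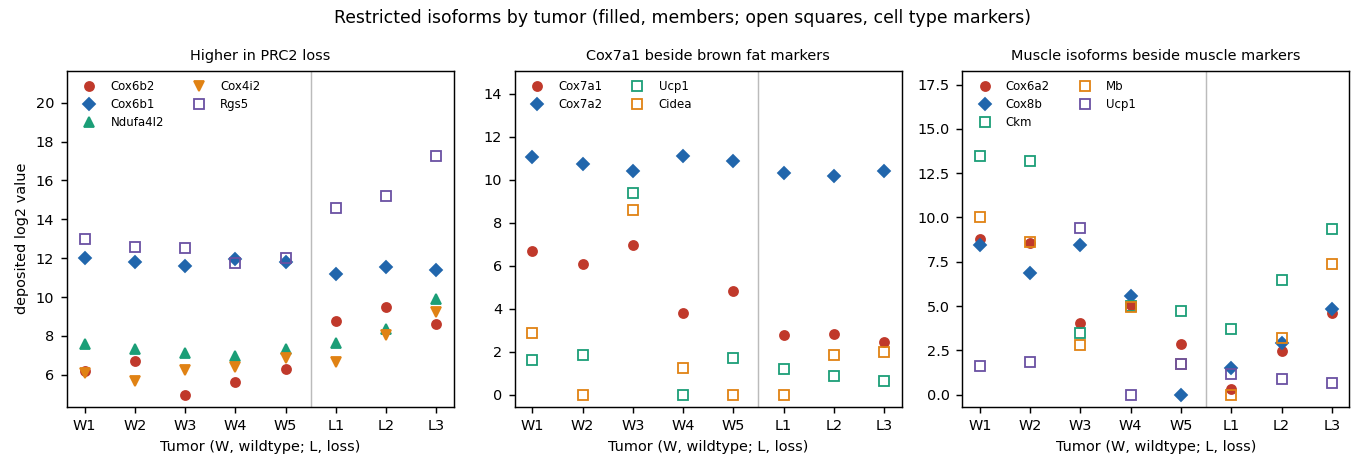
Deposited log2 values (vertical axis) of restricted complex IV isoforms (filled), their broad forms and cell type markers (open squares) in each tumor. Cox6b2 lies at 8.62 to 9.50 in PRC2 loss tumors and at 4.99 to 6.69 in wildtype tumors, and Cox6a2 is highest in the 2 wildtype tumors with the highest Ckm.

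Genes that build or feed the complexes are given beside the 19.6% of all genes that fell and the 16% that rose. Among 49 measured assembly factors, 20 fell and 1 rose (limma adjusted p below 0.05), with a median difference of -0.55. Sco2, which delivers copper to complex IV, fell by 1.54 (limma adjusted p = 0.000569), Coa6, another copper factor, by 1.38 (adjusted p = 0.00183), and Uqcc2, an assembly factor of complex III, by 1.08 (adjusted p = 0.00149). Surf1, a complex IV assembly factor, rose by 0.54 (limma adjusted p = 0.0449). The electron carrier and ubiquinone genes, with Cyc1 of complex III among them, had 4 of 16 (25.0%) lower and none higher, a share near that of all genes. Cycs, cytochrome c, fell by 1.29 (limma adjusted p = 0.000391), Coq4 by 1.19 (adjusted p = 0.00343) and Pdss2, which makes the ubiquinone tail, by 1.31 (adjusted p = 0.0094).

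The tricarboxylic acid cycle and pyruvate entry list had 6 of 20 genes (30.0%) lower and none higher by limma, including Suclg2, which fell by 1.37 (limma adjusted p = 0.00489), and Idh3a, which fell by 0.67 (adjusted p = 0.00217). Of the 78 mitochondrial ribosomal protein genes 50 fell and 1 rose, with a median of -0.64. Centred on housekeeping genes, the lower and higher counts were 9 and 3 for assembly factors, 3 and 1 for electron carriers and ubiquinone, 1 and 3 for the tricarboxylic acid cycle, and 21 and 3 for mitochondrial ribosomal proteins, where 10.7% of all genes fell and 25.5% rose on that scale. Of 18 regulators of mitochondrial biogenesis 3 fell (16.7%, near the share of all genes) and 1 rose. Pprc1, a coactivator of respiratory genes, fell by 1.53 (limma adjusted p = 0.00114), Tfb1m by 1.31 (adjusted p = 0.00421) and Esrra, the estrogen-related receptor alpha, by 0.68 (adjusted p = 0.00706), while Ppara rose by 3.16 (adjusted p = 0.00782). The hypoxia response list had 4 of 15 genes higher and 4 lower, with Ndrg1 rising by 3.42 (limma adjusted p = 0.000624) and Car9 differing by -2.41 (adjusted p = 0.00795).

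Over the 22 alternatives the number of members called lower lay between 4, with the replicate block, and 39, with array weights, and the number called higher lay between 0 and 10. Over all genes, 774 fell with the replicate block and 4953 with array weights, where 4087 fell as reported. More members were called lower than higher in all alternatives except the centring on housekeeping genes, with 9 and 10, and on the members' median, with 9 each. The latter takes out a common shift by construction.

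**Figure D5:**
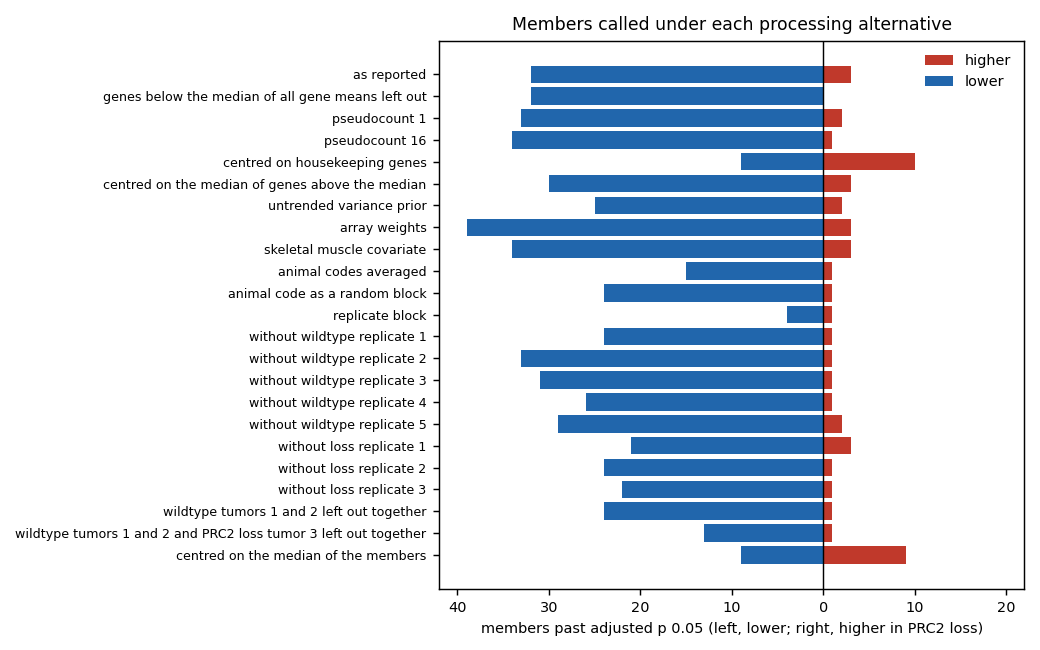
Number of members called lower (bars to the left) and higher (bars to the right) at a limma adjusted p below 0.05, as reported and under each of the 22 alternatives. The lower count is 32 as reported, 9 when tumors are centred on housekeeping genes and 4 with the replicate block. Over all genes the lower counts of these fits are 4087, 2230 and 774.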

How the data were processed

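Illumina TruSeq poly-A libraries of 8 tumors were sequenced, per the labels' protocols. Trim Galore, STAR 2.6, Partek 7.0 and mm10 are named by the submitters' processing notes. For the annotation, counting, strand use and the offset added before the log, the sources used here give nothing. The authors deposited quantile-normalized log2 gene counts, so library totals are not held, depth is unknown, and no counting interval is given. A fold is 2 raised to a difference of these values and understates change in low genes. Of 20943 genes, 136 were constant and 20807 were tested with limma 3.58.1 (R 4.3.3), trended empirical Bayes variances, two-sided, no covariate, p-values adjusted by Benjamini-Hochberg over the tested genes, and a threshold of 0.05; 9578 had an unadjusted p below 0.05. Log2 ratios of 6 isoform pairs were compared by an exact permutation test over 56 splits; in 2 of the 8 pairs listed the restricted gene was at 0 in all tumors of a group. Tables were joined in Python 3.11.15 with pandas 2.3.3.

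The labels call the tumors biological replicates but do not say which came from separate mice, so p-values measure the spread between these tumors. Positions and promoters came from RefSeq for GRCm38.p6 (all 89 members matched by symbol) and exon lengths from GENCODE (83 of 89); a level per kilobase is the log2 value less the log2 of exon length in kilobases. Of 72 promoter windows compared with transcripts, 64 had their end in a transcript of the gene in the same orientation. The scripts were tested on simulated data. The members and the gene lists were chosen with earlier results of these data known. Named members were all of complex II, up to 4 per other complex and direction by smallest p past the threshold, fixed core subunits, the isoform pairs, members listed at 0, and the highest and lowest per complex; from the other lists, up to 3 per direction. Other members were named after their values were seen. A few genes under the rule are not reported here singly.

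The same-numbered tumors of both groups had correlations of their deviations between -0.2084 and 0.1465, so replicate numbers do not pair the tumors. The 22 alternatives included low-value filters, pseudocounts of 1 and 16, other centrings, animal numbers averaged or as a random block, a muscle covariate, a replicate block, and leaving out each tumor. Leaving out wildtype tumors 1 and 2 together, these with PRC2 loss tumor 3, and centring on the members' median were chosen after seeing the data.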

Additional observations from a re-analysis of the deposited data

Results flagged for a closer look

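Among the 87 members tested for a wildtype tumor far from the other 4, 4 had one, where chance gives about 1 in 20. The count is near that share and is no result about the members, and the 4 are listed for description only. In wildtype tumor 4, Atp5d was at 12.75 against 11.74 to 11.98 in the others, Atp5h at 12.42 against 11.90 to 12.02, and Uqcrq at 11.51 against 10.91 to 11.07. In wildtype tumor 3, Ndufb4 was at 9.34 against 9.61 to 9.67. Atp5d encodes the delta subunit of the F1 rotor and Atp5h subunit d of the peripheral stalk; neither fell in PRC2 loss by limma, and both were named after their values were seen.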

How the results depend on the processing

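Depth is unknown, 3 PRC2 loss tumors from 2 animal numbers limit precision, and no result reversed a called direction. The count of members that fell (32) was 9 with tumors centred on housekeeping genes and 9 with centring on the members' median, 15 with animal numbers averaged, 13 without wildtype tumors 1 and 2 and PRC2 loss tumor 3, and 21 to 33 on leaving out 1 tumor. The count that rose (3) was 10 with housekeeping centring, 9 with centring on the members' median, 0 when genes with a mean below that of the median gene were left out, 1 to 3 on leaving out 1 tumor, and 1 with pseudocount 16, with animal numbers averaged or as a random block, without wildtype tumors 1 and 2, and without these and PRC2 loss tumor 3. The median difference (-0.37) was -0.0167 with housekeeping centring, -0.0092 with centring on the members' median, and -0.44 to -0.33 on leaving out 1 tumor. By construction, centring on the members' median sets that value near 0. Over all genes, 3337 rose and 4087 fell: 1715 and 2533 without genes below the median, 2113 and 2113 when animal numbers were averaged, 5304 and 2230 after housekeeping centring, 2555 to 3413 and 2972 to 4284 on leaving out 1 tumor, and 2022 fell with centring on the members' median. The cause of these changes was not tested, apart from fewer genes under the filter and fewer tumors.

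Same-numbered tumors share only a number. With the replicate block, 1 member rose and 4 fell, and over all genes 1129 rose and 774 fell; the block leaves few residual degrees of freedom. For the named members and isoform ratios, 976 values under alternatives kept their side of the threshold, 173 lost it and 10 gained it. Among named members not called, 12 changed sign with housekeeping centring, 13 with centring on the members' median, and 0 to 2 under any other alternative.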
